A study of Mus musculus with 10 samples.

Results

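The genes examined were 44 sarcomere and contractile genes, which encode the proteins that a muscle fibre assembles to produce force. They were chosen by name, and all 44 were found among the 21883 protein-coding genes of the RefSeq gene table for GRCm38.p6, the mm10 build. By role, 15 belong to the thick filament, 14 to the thin filament, 11 to the Z-disc, the M-band, titin and desmin, and 4 to calcium release and energy supply. By isoform, 11 are typical of fast fibres, 10 of slow fibres and 7 of developing or cardiac muscle, and 16 are not specific to a fibre type. Of the 131656 accessible regions in the list from young cells, 280 had their strongest summit within 10 kb of 1 of these genes. Of the 117284 regions in the list from aged cells, 236 did.

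A sarcomere is a repeating unit in which myosin thick filaments pull on actin thin filaments, with titin and the Z-disc as its scaffold. Muscle stem cells do not contract, and they take on sarcomere genes only when they differentiate and fuse. During that step the MyoD family binds E-boxes, while MEF2 proteins and serum response factor bind MEF2 sites and CArG boxes in many of these genes. Embryonic and perinatal isoforms come first in regenerating fibres, and adult fast or slow isoforms replace them.

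Open chromatin was mapped by ATAC-seq: a transposase inserts adapters wherever DNA is exposed. The cells were muscle stem cells of C57BL/6 mice, sorted for α7-integrin and CD34. They were kept for 2 h in medium with PGE2, a prostaglandin released in injured muscle, or with its vehicle of 0.1% DMSO. The 4 groups were young vehicle (2 samples), young PGE2 (2 samples), aged vehicle (3 samples) and aged PGE2 (3 samples). Young mice were 8 to 20 weeks of age and aged mice 20 to 25 months, and every group came from the same strain and the same sort. The values used here come from 1 peak list for young cells and 1 for aged cells, both after PGE2, and the vehicle groups were not analysed here. Each age therefore has a single list with no replicate values, so no difference between the lists has a replicate check and no p-value is given. The depth of the libraries is unknown. In cells measured in bulk, fewer cells with an open site and less access per cell cannot be told apart.

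A region is a run of touching or overlapping peaks, and its fold is the ratio of its strongest summit to background that the authors deposited with it. A fold is read against other folds of the same list, so values given for both lists stand side by side and measure no change with age. The lists differ in length and in overall strength. Over all genes with an open end, the median fold of the strongest end region was 44 in the young and 28.9 in the aged list. The labelled cell type was checked on 10 marker genes of muscle stem cells, among them Pax7 and Myf5, and all 10 had an open end in both lists. None of 6 genes of other organs had one. Of the markers of other cells in muscle, 6 of 7 fibroblast genes, 2 of 6 endothelial genes, 5 of 5 smooth muscle genes and 1 of 6 immune genes had an end open in both lists. One more fibroblast gene (Ly6a, 2.5-fold) was open in the aged list alone and one more endothelial gene (Cdh5, 1.98-fold) in the young list alone. The part of such cells in the results below was not tested.

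Most of the contractile genes had open chromatin at 1 of their ends, but fewer had it over the promoter window. The gene ends that were open in a single list were all in the young one. A gene end was called open when a region came within 1 kb of either end of the gene span. Of the 44 genes, 26 (59.1%) had an open end in both lists, against 63.3% of all protein-coding genes. Another 7 (15.9%) had one in the young list alone, against 3.2% of all genes. None of the 44 had one in the aged list alone, against 0.48% of all genes, and 11 (25%) had none in either list, against 33%. With this window of 1 kb, the share open in the young list alone was thus above the share over all genes. The other shares lay closer to theirs. The share open in both lists depended on the window. It was 43.2% against 60.3% of all genes at 500 bp, and 86.4% against 68.0% at 2.5 kb.

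The open ends of contractile genes were weak for gene ends. Among the 33 open in the young list the median fold was 11.7, and only 4 exceeded the 44 that was the median over all genes. Among the 26 open in the aged list the median was 8.39, and 5 exceeded 28.9. Weak ends are found in a single list more often, so the genes were set beside all genes of like fold. Among ends of under 5-fold in the young list, 4 of 7 contractile genes and 47.4% of 1225 genes in all were open in that list alone. At 5- to 10-fold the numbers were 2 of 7 against 5.96% of 1107 genes, and at 10-fold or more 1 of 19 against 0.442% of 12220 genes. With 7, 7 and 19 genes these shares are rough. With windows of 2.5 kb, 3 of the 44 genes (6.82%) were open in the young list alone, against 3.22% of all genes, and with equally long lists of the 58642 strongest regions 5 (11.4%) were, against 2.81%.

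**Figure D1:**
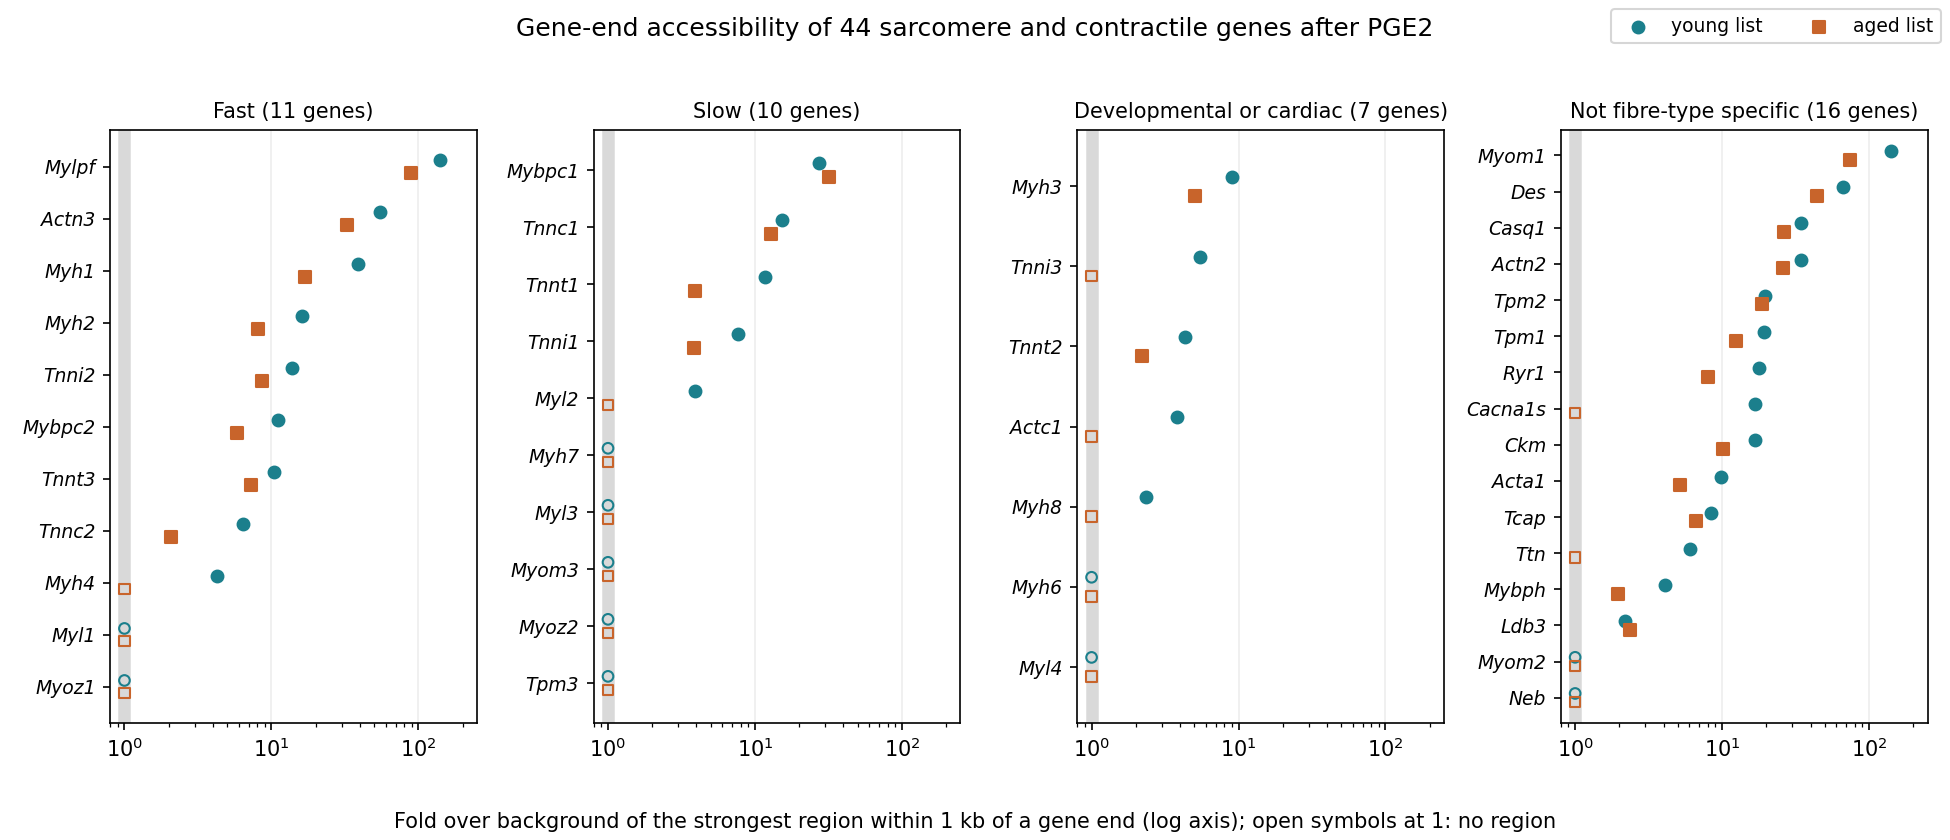
Fold over background of the strongest region within 1 kb of a gene end (log axis) for each of the 44 genes, by isoform class, with circles for the young list and squares for the aged list. Open symbols at 1 stand for no region. The 7 genes with a filled circle and an open square are those with an end open in the young list alone, at 2.33-fold to 16.9-fold, and no gene shows the reverse.

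Promoters gave a stricter view. The RefSeq promoter table gives windows of 300 bases, from 250 before to 50 after a transcript start, and 37 of the 44 genes matched with 43 windows. Tnnt3, Actn3, Myoz1, Myom2, Neb, Tcap and Tnni2 had no entry. A region overlapped a window of 14 of the 37 genes (37.8%) in the young list and of 10 (27.0%) in the aged list, against 63% and 60.8% of 17491 genes. The median fold of the open promoters was 23.6 in the young and 21.4 in the aged list, against 47.8 and 31.3 over all genes. The 10 genes were open in both lists (27.0%, against 60.5%), and 4 more in the young list alone (10.8%, against 2.51%). None was open in the aged list alone, against 0.274%, and 23 were closed in both (62.2%, against 36.7%). With equally long lists of the strongest regions the 4 were closed in both lists, while the 10 stayed open. A region can reach a window from a summit outside it: a peak summit lay inside a window of 8 of the 37 genes in each list, against 57.7% and 55.6% of all genes. These were Actn2, Myl4, Ryr1, Tpm1, Tpm2 and Tpm3 in both lists, Ldb3 and Mybpc1 in the young list and Des and Myh1 in the aged list. By that count, made after seeing the data, neither list had more open promoters than the other. Of the 37 genes, 17 had an open end but a closed promoter in the young and 14 in the aged list. That count was not made over all genes. A promoter window can lie away from the start of the span, as at Myom1 and Mylpf, so the measures can read different sites.

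**Figure D2:**
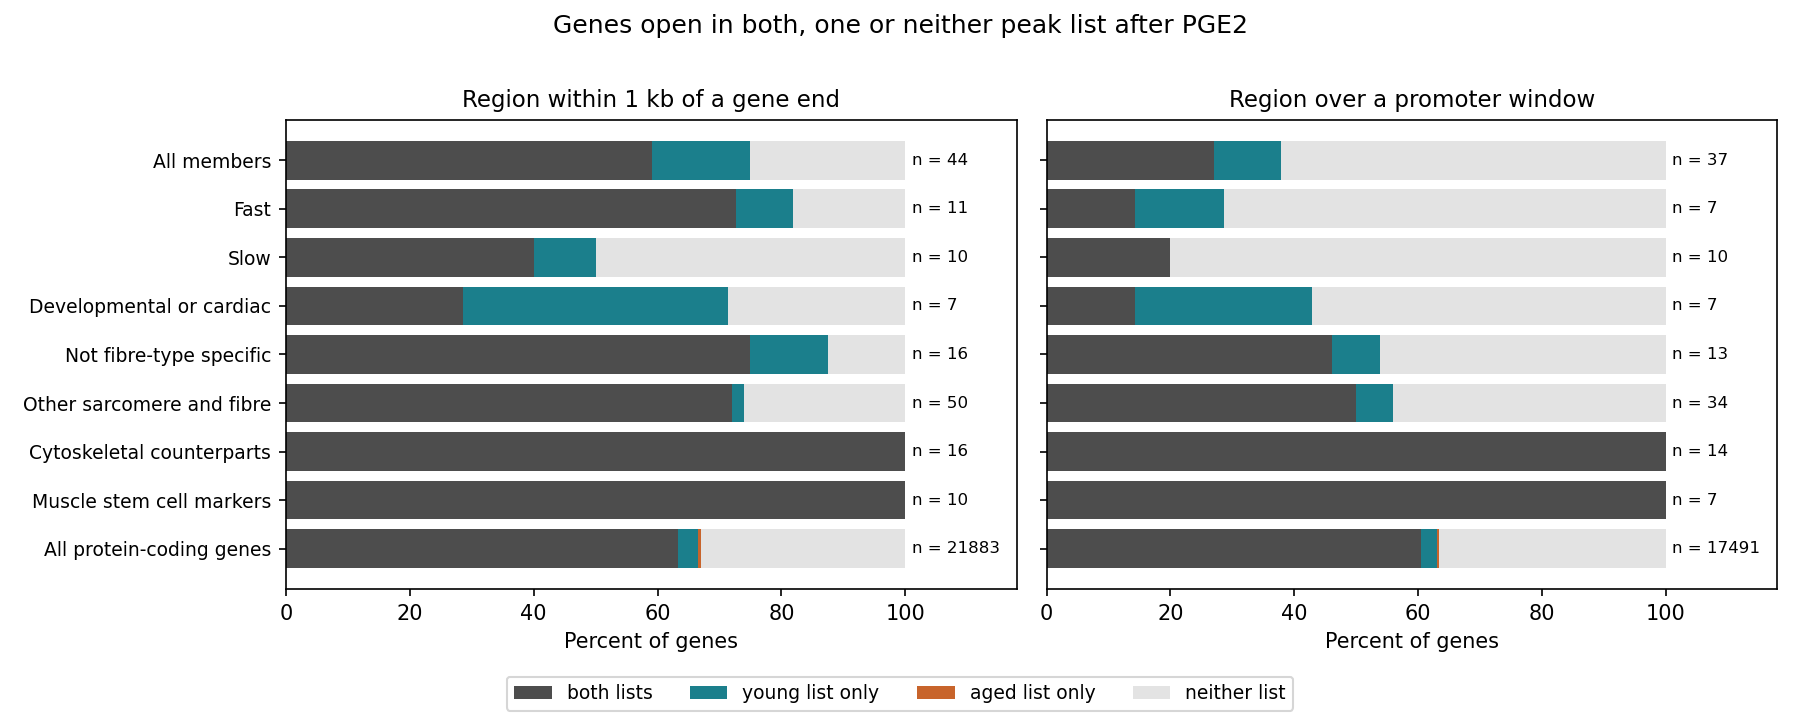
Share of genes (percent) with open chromatin in both lists, the young list alone, the aged list alone or neither, by gene set, for gene ends on the left and promoter windows on the right, with the number of genes beside each bar. Over promoters 62.2% of the contractile genes were closed in both lists, against 36.7% of all genes, while every cytoskeletal relative and every stem cell marker with a promoter entry was open.

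In the thick filament, neighbouring promoters differed within a chromosome 11 cluster of skeletal myosin heavy chains, the motor proteins that set a fibre's speed. In the order of transcription the cluster runs Myh3 (embryonic), Myh2 (fast type IIa), Myh1 (fast type IIx), Myh4 (fast type IIb) and Myh8 (perinatal). Only the Myh1 window was overlapped in both lists, those of Myh2 and Myh3 were closed, and those of Myh4 and Myh8 were overlapped in the young list alone, by 5 and 22 bases at their edge. With equally long lists of the strongest regions the last pair were closed too. The promoter windows of Myh2, Myh1, Myh4 and Myh8 are printed here because these neighbours on the same strand differ in whether a region reaches them. They lie on the plus strand of GRCm38.p6 at chr11:67170777-67171076, chr11:67199852-67200151, chr11:67237562-67237861 and chr11:67276874-67277173 and come from RefSeq. Capitals mark CAGCTG and CACCTG E-boxes, MEF2 sites, CArG boxes and TATAAA on either strand.
Myh2: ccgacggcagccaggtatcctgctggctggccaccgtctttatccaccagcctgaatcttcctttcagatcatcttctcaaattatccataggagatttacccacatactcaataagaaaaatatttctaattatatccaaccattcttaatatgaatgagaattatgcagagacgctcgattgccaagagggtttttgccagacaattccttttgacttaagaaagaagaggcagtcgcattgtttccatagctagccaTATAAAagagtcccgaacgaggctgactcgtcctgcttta
Myh1: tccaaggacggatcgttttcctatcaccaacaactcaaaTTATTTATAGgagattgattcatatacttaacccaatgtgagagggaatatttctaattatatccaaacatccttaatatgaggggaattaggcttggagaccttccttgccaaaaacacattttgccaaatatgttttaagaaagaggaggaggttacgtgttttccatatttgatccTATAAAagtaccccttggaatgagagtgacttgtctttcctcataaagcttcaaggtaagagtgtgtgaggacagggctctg
Myh4: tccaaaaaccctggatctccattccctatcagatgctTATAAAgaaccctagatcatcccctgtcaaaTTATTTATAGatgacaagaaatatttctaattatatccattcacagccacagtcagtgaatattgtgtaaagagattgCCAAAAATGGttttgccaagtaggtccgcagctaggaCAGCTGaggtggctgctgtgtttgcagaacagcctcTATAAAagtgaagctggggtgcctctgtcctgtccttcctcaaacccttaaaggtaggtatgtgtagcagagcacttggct
Myh8: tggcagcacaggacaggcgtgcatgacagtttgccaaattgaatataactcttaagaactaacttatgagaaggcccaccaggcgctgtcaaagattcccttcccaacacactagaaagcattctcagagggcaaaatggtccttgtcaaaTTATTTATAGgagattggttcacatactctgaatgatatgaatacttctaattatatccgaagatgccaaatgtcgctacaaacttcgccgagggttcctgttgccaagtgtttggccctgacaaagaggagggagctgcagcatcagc

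The windows shared their motifs in part. TATAAA stood 32 bases before the start of Myh1 and 31 bases before that of Myh4, the usual place of a TATA box. A MEF2 site was found in Myh1 (211 bases before the start), in Myh4 (182 bases) and in Myh8 (99 bases), with the same letters in each, TTATTTATAG. The Myh8 window had no TATAAA near the start. Myh4 also held a CArG box 104 bases and a CAGCTG E-box 67 bases before the start, the most kinds of motif among the 4 windows. The young region that reached the Myh4 window overlapped 5 bases at its edge, from a summit 349 bases before the start. That region covered none of the Myh4 motifs in capitals. Myh2 held TATAAA only after its start, and no MEF2 site or CArG box. These matches describe letters and not bound sites.

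At Myh1 (chr11:67200102-67224577) the strongest region that reached the promoter window was at 39.0-fold in the young and 16.9-fold in the aged list. These folds were above 91.6% of all young regions and 83.6% of all aged ones. They were below the median open promoter of all genes, at 47.8-fold and 31.3-fold. The summit of the Myh1 region lay upstream of the window, 600 bases before the start in the young and 602 in the aged list. Over the start itself the aged list held a separate region of 4.32-fold, and the young region had no peak summit inside the window. At Myh4 (chr11:67237812-67260447) the young list held regions of 4.27-fold and 2.99-fold just before the start, and neither was overlapped in the aged list. At Myh8 (chr11:67277124-67308634) a young region of 2.33-fold touched the promoter window from a summit 314 bases before the start, and the aged list had none. These 3 young regions at Myh4 and Myh8 were weak, the strongest of them above 44.8% of young regions. Myh2 (chr11:67171027-67197517) had its open end as a region before the start, at 16.2-fold in the young and 8.07-fold in the aged list, and Myh3 (chr11:67078273-67102291) at its far end, at 9.02-fold and 5.05-fold.

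The strongest regions of the cluster were not all at promoters. Between Myh3 and Myh2, over 68.7 kb where the adult fast myosin genes are known to share an enhancer, the young list held 16 regions and the aged list 11. The strongest of them, 86.9 kb from the start of Myh3 and just before Myh2, reached 43.0-fold in the young and 21.0-fold in the aged list. In that stretch 7 of 16 young regions and 1 of 11 aged regions reached 10-fold, against 30.5% and 27.2% of regions near all genes. Without a counterpart in the other list were 5 of the 16 young regions and none of the 11 aged ones, against 28.8% and 9.63% near all genes. Between Myh1 and Myh4 there were 4 young regions and 1 aged region, and between Myh4 and Myh8 3 young regions and none in the aged list. A region beyond Myh8 was present in both, at 15.6-fold and 9.32-fold. Over the stretch from Myh3 to Myh8 with its flanks, 14 of 34 young and 1 of 22 aged regions had no counterpart in the other list. The shares near all genes were the same 28.8% and 9.63%. The strongest regions without a counterpart were at 6.96-fold and 3.41-fold.

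**Figure D3:**
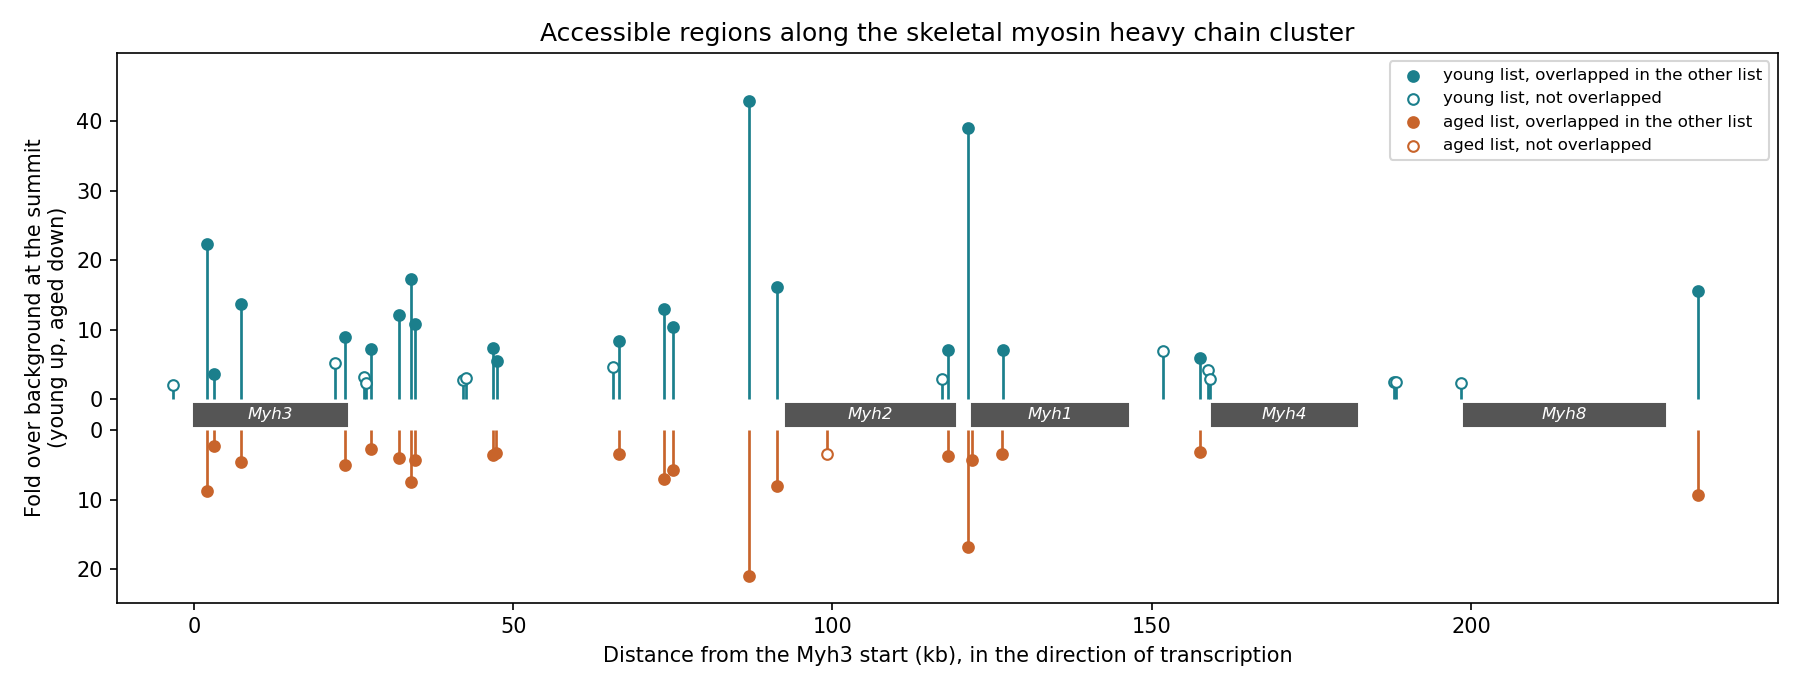
Fold over background of each region from Myh3 to Myh8 in the skeletal myosin heavy chain cluster (young list above, aged list below, both measured from 0). Regions are placed by the distance in kb from the start of Myh3 in the direction of transcription. Genes are shown as bars, and open symbols mark regions without a counterpart in the other list. The regions at 86.9 kb and just before the start of Myh1 are the highest in both lists, and the stretch from Myh4 to Myh8 holds regions of the young list alone.

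The heart and slow myosins lay elsewhere and were closed. Myh7 (slow and cardiac, chr14:54970684-54994626) and Myh6 (cardiac, chr14:54941921-54968017) sit next to each other, and neither gene had an open end or an open promoter in either list. Among the light chains, which clasp the myosin neck, Myl4 (embryonic and atrial) was open over its promoter at 55.1-fold and 32.1-fold, in a region that also reaches an end of the neighbouring gene Cdc27. No region lay within 1 kb of the ends of its RefSeq span, which starts upstream of that promoter. Mylpf, the fast regulatory light chain, had a very strong end region, at 139.8-fold and 89.0-fold. This region covers the start of the Mylpf span and lies at the end of Tbc1d10b. The Mylpf promoter window lies further inside the gene and was closed. Myl2 (slow and ventricular regulatory light chain) had a weak region of 3.92-fold at its finish in the young list alone, for which the nearest gene was another. The ends and promoters of Myl1 (fast) and Myl3 (slow and ventricular) were closed in both lists.

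Among the myosin-binding proteins, which brace the thick filament, Mybpc1 (slow) was the open one. The young list held 1 region over its start and upstream, with its summit of 27.5-fold 1095 bases before the start and a peak of 17.2-fold inside the promoter window. The aged list held separate regions, one of 31.7-fold upstream and one of 11.1-fold with its summit 66 bases after the start. Mybpc2 (fast) and Mybph had closed promoters with ends open in both lists. Their strongest end regions were at 11-fold and 4.09-fold in the young list and at 5.81-fold and 1.97-fold in the aged list, and in both genes the strongest region lay at different sites in the 2 lists. Over the thick filament, 7 of 15 genes had an end open in both lists, 3 in the young list alone and 5 in neither.

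In the thin filament, the 2 striated-muscle actins differed at their starts. Acta1 encodes the adult skeletal actin and Actc1 the cardiac actin, which is also the form of early and regenerating skeletal muscle. The windows of both are printed because both hold a CArG box and only that of Actc1 was reached by a region, at chr8:123894726-123895025 for Acta1 and chr2:114052826-114053125 for Actc1, both on the minus strand of GRCm38.p6 and from RefSeq, with capitals as before.
Acta1: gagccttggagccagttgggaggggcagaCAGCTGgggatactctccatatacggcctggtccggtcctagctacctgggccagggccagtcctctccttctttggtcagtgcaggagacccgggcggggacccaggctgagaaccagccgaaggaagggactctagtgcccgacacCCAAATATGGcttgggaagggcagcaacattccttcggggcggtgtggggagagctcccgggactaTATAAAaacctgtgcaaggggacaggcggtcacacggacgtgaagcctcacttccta
Actc1: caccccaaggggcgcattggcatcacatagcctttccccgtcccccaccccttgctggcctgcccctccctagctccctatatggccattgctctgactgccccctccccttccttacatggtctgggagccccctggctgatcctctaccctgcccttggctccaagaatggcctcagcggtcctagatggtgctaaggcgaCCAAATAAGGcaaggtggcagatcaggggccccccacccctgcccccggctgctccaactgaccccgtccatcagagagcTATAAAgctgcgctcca

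The CArG box stood 73 bases before the start of Acta1 and 47 bases before that of Actc1. The Acta1 promoter was closed in both lists. Its open end was the finish, at 9.90-fold in the young and 5.19-fold in the aged list (gene at chr8:123891758-123894775). The Actc1 promoter (gene at chr2:114047282-114052875) was overlapped by a young region of 3.83-fold, above 40% of young regions, with its summit 74 bases after the start, and by no aged region. Of 5 young regions within 10 kb of Actc1, 4 had no counterpart in the aged list, against 28.8% near all genes. These 4 were weak, at 2.33-fold to 6.47-fold, and the aged list held 1 region there, at 2.21-fold.

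Tropomyosins, which lie along actin and gate its contact with myosin, were the open family of the thin filament. Tpm1 was open over its promoter at 19.2-fold and 12.4-fold, and Tpm2 at 19.7-fold and 14.7-fold. Tpm3, the slow-fibre tropomyosin gene, has an upstream start and an internal start, and only the internal one was open, at 84.0-fold and 78.5-fold. Internal starts of tropomyosin genes are known for short forms found in most cells. Both windows are printed because the same gene was closed at the first and strongly open at the other, at chr3:90072401-90072700 and chr3:90079271-90079570 on the plus strand of GRCm38.p6, from RefSeq, with capitals as before.
Tpm3 upstream start: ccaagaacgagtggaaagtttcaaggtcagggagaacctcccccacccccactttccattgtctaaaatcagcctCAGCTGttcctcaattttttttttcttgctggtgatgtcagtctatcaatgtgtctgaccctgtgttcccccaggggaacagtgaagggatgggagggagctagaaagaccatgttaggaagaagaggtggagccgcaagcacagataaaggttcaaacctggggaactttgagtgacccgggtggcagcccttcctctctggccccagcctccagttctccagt
Tpm3 internal start: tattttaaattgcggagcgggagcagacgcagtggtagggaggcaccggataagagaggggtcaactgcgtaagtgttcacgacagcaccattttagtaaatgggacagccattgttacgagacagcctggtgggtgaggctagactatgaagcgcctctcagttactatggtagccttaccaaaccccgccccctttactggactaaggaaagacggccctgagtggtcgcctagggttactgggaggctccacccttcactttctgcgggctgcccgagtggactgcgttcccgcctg

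The pair differed in composition. The ratio of observed to expected CpG, a measure of how far a window has kept its CpG pairs, was 0.148 upstream and 0.651 at the internal start. The closed upstream window held a CAGCTG E-box 175 bases before its start, and the open internal window held none of the motifs in capitals. Because neither end of the span was within 1 kb of the internal region, Tpm3 counted as closed by its ends, which shows the limit of that measure.

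The troponins, the calcium switch of the thin filament, were closed over all promoters with an entry, in both lists. Tnni3 (cardiac troponin I, chr7:4518305-4522718) had a region of 5.50-fold near its start in the young list alone. Tnnt3 (fast troponin T, chr7:142498771-142516213) had an open end at 10.4-fold and 7.21-fold, and Tnni2 (fast troponin I, chr7:142441816-142444410) at 13.8-fold and 8.70-fold, the latter in a region at the end of Syt8. Tnnc1 (slow and cardiac troponin C) was open at 15.3-fold and 12.9-fold in a region that reaches an end of Nisch. Tnnt1, Tnni1, Tnnt2 and Tnnc2 had ends open in both lists, from 4.31-fold to 11.7-fold in the young list and from 2.07-fold to 3.89-fold in the aged list. For Tnnt1 and Tnni1 the strongest end region lay at different sites in the lists. Neb, the thin filament ruler nebulin, had no open end. Over the thin filament, 10 of 14 genes had an end open in both lists, 2 in the young list alone and 2 in neither.

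In the scaffold, Des stood out. Desmin is the intermediate filament that ties Z-discs together, and muscle stem cells and myoblasts are known to make it before sarcomeres form. Its promoter is printed because it was the most open promoter in this role, at chr1:75360042-75360341 on the plus strand of GRCm38.p6, from RefSeq, with capitals as before.
Des: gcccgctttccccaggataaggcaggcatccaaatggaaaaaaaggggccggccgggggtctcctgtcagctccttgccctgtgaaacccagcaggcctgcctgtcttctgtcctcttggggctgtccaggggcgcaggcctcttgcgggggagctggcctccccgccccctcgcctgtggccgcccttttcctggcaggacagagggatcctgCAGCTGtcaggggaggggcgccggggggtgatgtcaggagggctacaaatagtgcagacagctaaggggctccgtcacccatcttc

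At Des (chr1:75360292-75368579) the promoter was at 67.0-fold in the young and 44.5-fold in the aged list, above 96.2% and 95.4% of the regions of each, with summits 50 and 31 bases after the start. The only motif in capitals is a CAGCTG E-box 36 bases before the start. Actn2, the alpha-actinin of the Z-disc, was open over its promoter at 34.5-fold and 25.9-fold. The fast form Actn3 had an end at 54.8-fold and 32.5-fold in a region at the end of Zdhhc24. Myom1, an M-band protein, had the strongest end region of the 44 genes in the young list, at 141.6-fold, with 73.9-fold in the aged list, where that of Mylpf was stronger. The Myom1 region lies over an end of Myl12a, a light chain of non-muscle myosin, and over the start of the Myom1 span at chr17:71003332. The only Myom1 promoter window with an entry lies inside the gene, at chr17:71019307-71019606, and was closed.

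Ttn, the spring that spans each side of the sarcomere (chr2:76703980-76982557), had a closed promoter and a young region of 6.03-fold inside the gene near its start, with no aged region within 1 kb. Ldb3, a Z-disc protein, had a promoter region of 3.04-fold in the young list alone, while a neighbouring region at its start end was present in both lists, at 2.2-fold and 2.35-fold. Tcap, which anchors titin, had an end open at 8.36-fold and 6.68-fold. Myom2, Myom3, Myoz1 and Myoz2, of the M-band and Z-disc, had no open end in either list. Over the scaffold, 6 of 11 genes had an end open in both lists, 1 in the young list alone and 4 in neither.

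The genes of calcium release were among the open ones. Ryr1, the release channel, was open over its promoter at 17.9-fold and 8.07-fold. Casq1, which stores calcium in fast fibres, was reached by regions of 34.6-fold and 26.2-fold, whose summits lay 691 and 718 bases before the start. Cacna1s, the voltage sensor that triggers Ryr1, had a closed promoter and counted as open in the young list alone, at 16.9-fold. That region is also at an end of Ascl5 and was overlapped in the aged list by a region outside the 1 kb window, so it was the single case among the 7 where the young region did have a counterpart. Ckm, the creatine kinase that buffers ATP, was closed at the promoter and open at its finish, at 16.6-fold and 10.2-fold (gene at chr7:19411094-19421583).

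Across roles the open ends mixed starts, finishes and neighbours. Of the 37 genes with a strand, 24 were open near the start and 13 near the finish in the young list, with 8 at both, and 17 and 9 in the aged list, with 4 at both. The strongest end region lay at an end of another gene for 6 of 33 genes in the young list and 6 of 26 in the aged list. The 3 largest end folds in the young list other than that of Des, at Myom1, Mylpf and Actn3, were all of this kind. The same counts were not made over all genes, so none of them is shown to be particular to contractile genes.

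By isoform, ends open in both lists were counted for 8 of 11 fast, 4 of 10 slow, 2 of 7 developmental or cardiac and 12 of 16 genes without fibre-type specificity, against 63.3% of all genes. The fast share, 72.7%, was near that background, and 3 of the 8 fast ends (Actn3, Mylpf and Tnni2) lie at ends of other genes. Ends open in the young list alone, found for 3.2% of all genes, were counted for 1 fast gene (Myh4) and 1 slow gene (Myl2). They were also counted for 3 of 7 developmental or cardiac genes (Actc1, Myh8 and Tnni3) and 2 of 16 others (Cacna1s and Ttn). With equally long lists of the strongest regions only Cacna1s and Ttn kept that status, and the rest were closed in both lists. Ends closed in both lists were found for 2 fast, 5 slow, 2 developmental or cardiac and 2 other genes, against 33% of all genes. Over promoters the order was not the same. Both lists were open for 1 of 7 fast genes (Myh1) and 2 of 10 slow genes (Mybpc1 and Tpm3), against 60.5% of all genes. The same held for 1 of 7 developmental or cardiac genes (Myl4) and 6 of 13 others. Tpm3 counted through its internal start alone, as its upstream window was closed in both lists. With gene-end windows of 500 bp, 4 of 11 fast and 3 of 10 slow genes had an end open in both lists, against 60.3%. With classes of 7 to 16 genes and no replicate lists, these counts are descriptions.

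All 44 genes had at least 1 region within 10 kb in each list, with a median of 5.5 regions a gene in the young and 5 in the aged list. Myom1 had the most, with 29 and 23. Within the gene spans with 10 kb on either side there were 11.1 young and 9.39 aged regions per 100 kb, against 7.34 and 6.50 for all genes. Inside the spans lay 155 of the 280 young regions and 121 of the 236 aged ones. The share of regions of at least 10-fold was 30% in the young and 25.0% in the aged list, against 30.5% and 27.2% near all genes. Regions near contractile genes were thus denser than near genes in general and of like strength.

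The share of regions found in a single list was close to that near other genes. Of the young regions 90 (32.1%, exact Clopper-Pearson 95% interval over regions 26.7 to 38.0) were not overlapped in the aged list by at least 1 base, against 28.8% near all genes. Of the aged regions 19 (8.05%, 4.92 to 12.3) were not overlapped in the young list, against 9.63%. The intervals cover counting error only, and both hold the share near all genes. These regions were weak, with a median of 2.73-fold in the young and 2.40-fold in the aged list. The strongest were a young region of 7.57-fold inside Ttn (chr2:76929609-76930033) and an aged region of 3.41-fold inside Myh2 (chr11:67177392-67177568). By isoform the young share was 20.9% for fast genes (10 to 36), 32.8% for slow genes (21.0 to 46.3), 36.6% for developmental or cardiac genes (22.1 to 53.1) and 34.0% for the others (26.3 to 42.4), with intervals that overlap.

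The promoters of contractile genes differ in sequence from those of most genes, so their open shares are also given within classes of like CpG content. The median ratio of observed to expected CpG was 0.238 over the 43 windows, against 0.567 over all 21262 windows, and 74.4% of the contractile windows fell below 0.4, against 39.4%. Below 0.4, 25.0% of 32 contractile windows were open in the young and 12.5% in the aged list, against 19.5% and 17.0% of all such windows. At 0.4 or above, 63.6% of 11 contractile windows were open in the young and 54.5% in the aged list, against 90.2% and 87.7%. Low-CpG windows of contractile genes were about as often open as those of other genes, with counts of 8 and 4 of 32. The 8 include 2 overlapping windows of Ldb3 under 1 region. The few high-CpG ones were less often open, with counts of 7 and 6 of 11.

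**Figure D4:**
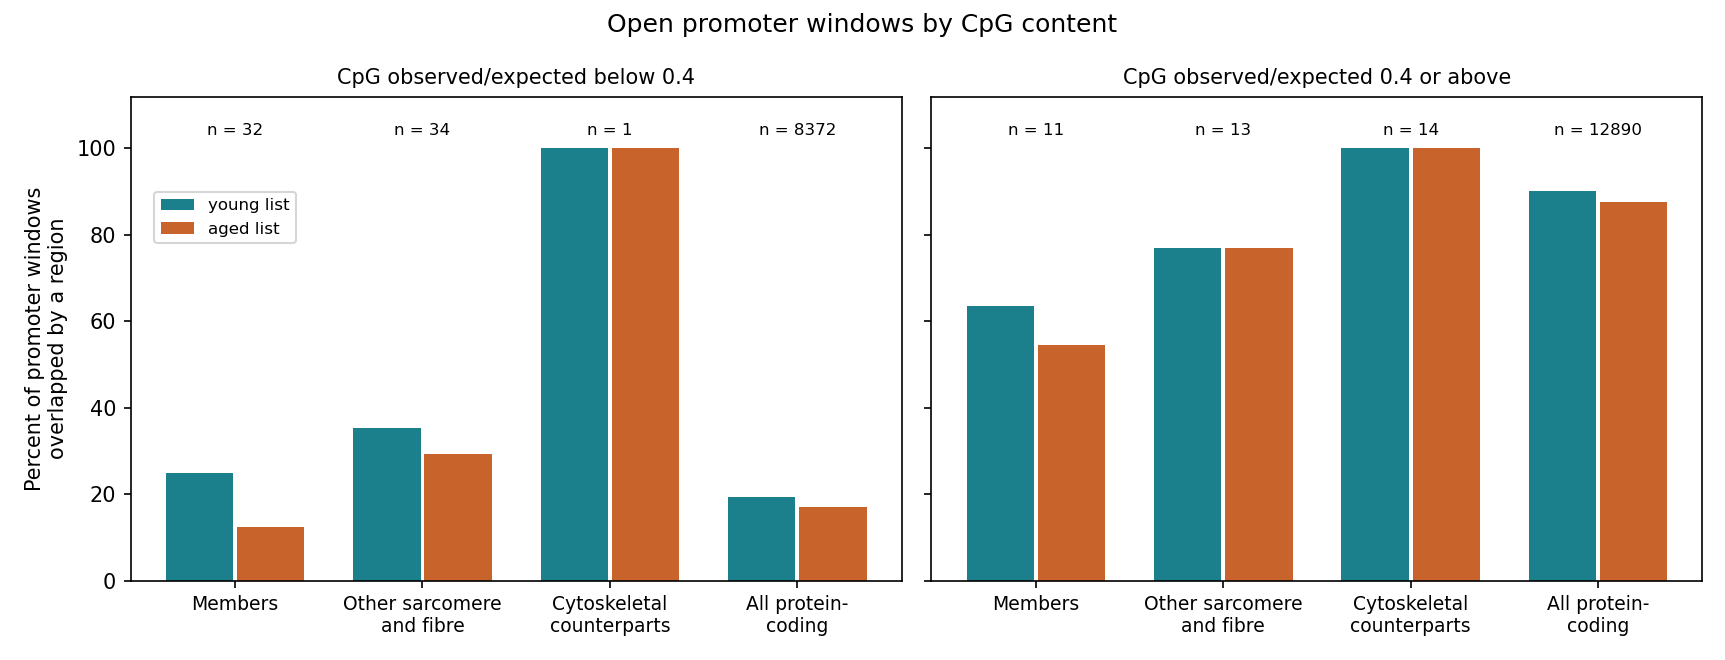
Percent of promoter windows overlapped by a region, split at a CpG observed to expected ratio of 0.4, for contractile genes, other sarcomere and fibre genes, cytoskeletal relatives and all protein-coding genes, with the number of windows above each pair of bars. Among low-CpG windows 25.0% of the contractile ones and 19.5% of all were open in the young list, while cytoskeletal relatives, nearly all in the high-CpG panel, were open throughout.

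Motifs of muscle transcription factors were more frequent in the contractile windows than in all windows of 300 bases, on either strand. A CAGCTG E-box was found in 41.9% of the 43 windows against 15.6% of all, CACCTG in 27.9% against 19.7%, and any CANNTG E-box, which includes both, in 86.0% against 69.0%. A MEF2 site was found in 14% against 2.74%, a CArG box in 16.3% against 1.52%, TATAAA in 27.9% against 12.6%, and the TEAD motif CATTCC in 32.6% against 13.6%. A MEF2 site can overlap TATAAA. Ldb3, Tnni1 and Myh7 each have 2 overlapping windows, so a motif shared by both is counted in each. The GC box GGGCGG was less frequent, in 27.9% against 46.2%, and the AP-1 motif TGANTCA was at 9.30% against 6.99%. The cAMP response element TGACGTCA was in none of the 43 windows and in 2.23% of all. In 15 windows of cytoskeletal relatives, CArG boxes were in 20%, CATTCC in 33.3%, CACCTG in 26.7%, CAGCTG in 20% and MEF2 sites in 6.67%. In 47 windows of other sarcomere and fibre genes, CAGCTG was in 40.4%, MEF2 sites in 14.9%, CArG boxes in 6.38% and CATTCC in 19.1%. The CArG and CATTCC shares were thus not particular to the contractile genes.

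Some motifs were spread unevenly over windows open and closed in the young list, with no test of the difference. Any CANNTG E-box was in 10 of 15 open and 27 of 28 closed windows, CACCTG in 1 open and 11 closed, and CAGCTG in 5 open and 13 closed. GGGCGG was in 7 open and 5 closed windows, CArG boxes in 4 open and 3 closed, and MEF2 sites in 3 of each. Of the 4 open windows with a CArG box, 2 are overlapping windows of Ldb3 that share 1 box and 1 region. Windows without a region include some rich in these motifs, such as Acta1 with a CArG box and a CAGCTG E-box, and the open window of Myl4 held no E-box, MEF2 site or CArG box.

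The closed promoters stood against open ones in the non-muscle relatives of the same proteins. The 16 cytoskeletal relatives included Actb and Actg1 (cytoplasmic actins), Myh9 and Myh10 (non-muscle myosins) and Vim (vimentin). All 16 had an end open in both lists, against 63.3% of all genes. All 14 with a promoter entry were open there in both lists, against 60.5%. However, 14 of their 15 windows had a CpG ratio of 0.4 or above, against 25.6% of contractile windows. In that class 90.2% (young) and 87.7% (aged) of all windows were open. The promoter contrast thus goes with one in CpG content, and its cause was not tested. The median end fold of the relatives was 50.3 in the young and 32.4 in the aged list, against 11.7 and 8.39 for the contractile genes. Myh9 was at 108.5-fold and 72.3-fold and Vim at 135.9-fold and 94.4-fold. In the young list both stood above every contractile promoter. Among 50 further sarcomere, calcium-handling and fibre genes, 36 had an end open in both lists, 1 in the young list alone (Tmod4, a thin filament capping protein, at 2.73-fold) and 13 in neither. Of the 34 of them with a promoter entry, 19 were open in the young and 17 in the aged list. The median end folds of this wider list were 17.1 and 11.1.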

How the data were processed

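The submitters' processing notes name Bowtie2 as a tool and mm10 (GRCm38) as the genome build. Not given in the sources used here were the peak caller's version and settings, the read filters, any Tn5 offset correction, and the libraries behind each list. Each of the 2 deposited lists gives, for every peak, a fold ratio over background and a −log10 q-value computed by the authors' caller, with smallest −log10 q-values of 2.08 (young) and 2.16 (aged). Library depth is unknown, so intervals cover counting error over regions only.

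Touching or overlapping peaks were merged (265507 young and 215838 aged peaks) and the summit with the largest −log10 q-value was kept. Regions were assigned by a summit within 10 kb of a gene span, ends by a window of 1 kb, and overlap between lists by at least 1 base. Gene spans and promoter windows came from RefSeq GRCm38.p6. Exact Clopper-Pearson intervals were at 95%. Merging, overlap and gene-end calls were tested on simulated data. Analysis used Python 3.11.15, numpy 2.4.6, pandas 2.3.3, scipy 1.17.1 and matplotlib 3.10.9.

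All 44 genes are accounted for. Values are given in full for genes open in 1 list only, the 8 strongest ends open in both lists, the myosin heavy chain genes, Acta1, Des, Ttn, Ckm, Tnni2 and Tnnt3, with the Tpm3 starts and the fold classes chosen after their values were seen. The genes and lists were chosen with earlier results of these data known. Alternatives were other gene-end windows, equally long lists of the 58642 strongest regions, a −log10 q of 5 or more, other overlap rules, other distances, wider merging and nearest-gene assignment. Stricter lists for promoters, and a count of promoter windows that hold a peak summit, were added after seeing the data. Elsewhere a promoter is called open where a region overlaps its window by at least 1 base, and its fold is that of the whole region.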

Additional observations from a re-analysis of the deposited data

How the results depend on the processing

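Of 68 values recomputed under other settings, 48 stayed within 1.5 times the reported count or within the interval of the reported share, and 20 did not. No gene end was open in the aged list alone under any setting run. With a peak summit required inside the promoter window, chosen after seeing the data, 8 promoters were open in each list, with Des and Myh1 in the aged list alone. Young regions covered the windows of both genes in full, with their summits outside. With a region within 500 bp of the start, 21 promoters were open in the young and 13 in the aged list. With gene-end windows of 500 bp, 19 genes were closed in both lists and 4 fast genes were open in both, next to 3 slow genes. With windows of 2.5 kb, 3 genes (6.82%) were closed in both lists, against 28.3% of all genes. There 3 were open in the young list alone (against 3.22% of all genes). In both lists 8 slow and 4 developmental or cardiac genes were open. A −log10 q of at least 5 left 1 developmental or cardiac gene open in both lists. With the 58642 strongest regions of each list, 19 genes (43.2%) were closed in both lists, against 39.3% of all genes. There 2 slow and 1 developmental or cardiac genes were open in both. In that setting 144 young and 120 aged regions lay within 10 kb, and 26.4% of the young had no counterpart. Of the 7 genes open in the young list alone, 2 (Cacna1s and Ttn) kept that status there, and 5 genes in all had it (11.4%, against 2.81% of all genes). The 4 promoters open in the young list alone were all closed in that setting. A reciprocal overlap of 50% left 41.4% of young and 30.1% of aged regions without a counterpart, and summits within 100 bp left 25% of aged ones. Shares near all genes were not computed under these overlap rules or for the equally long lists. Those given above belong to the full lists and an overlap of at least 1 base. Summits within 2 kb gave 153 aged regions, and within 50 kb 624 young and 564 aged regions. Windows, thresholds and distances change these counts by construction. No paired analysis was possible because each age has 1 list and no values per sample. For the same reason no replicate could be left out. Depth is unknown, so a region missing from the aged list was not detectable there and is not shown to be absent.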
